A study of Mus musculus with 56 samples.

Results

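Gse1 and A330074K22Rik are neighbouring genes on mouse chromosome 8 to which the authors' annotation assigned more peaks with lower H2A.Z than to any other of 6690 genes. Their members here are the 21 rows of the list of lower peaks that name either gene, 12 for Gse1 (Entrez 382034) and 9 for A330074K22Rik (Entrez 434353), of 9077 lower peaks in all. To these were added all peaks of the H2A.Z set in a window of 350 kb on chromosome 8 (GRCm38), which begins 4.43 kb before A330074K22Rik and ends 31.4 kb before the end of Gse1, and which held 34 of 61420. The pair was chosen by its number of listed lower peaks, so this number and the share of lower peaks that follows from it are given as a description, with no test.

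CUT&Tag, in which an antibody brings a transposase to chromatin so that sequenced fragments mark the bound sites, was run on mouse embryonic stem cells of the line RHKI(E14Tg2a), genotype HA-Rnaseh1 knock-in. The labels list 56 libraries for 10 targets. For H2A.Z there were 4 libraries without treatment and 4 after 48 hours of doxycycline at 500 ng/ml. Both groups carried the knock-in and grew in 2i/LIF medium with 2% FBS, the MEK inhibitor PD0325901 at 1 µM and the GSK3 inhibitor CHIR-99021 at 3 µM. The design text also names a line ZX-1 that no sample label gives, so an effect of doxycycline itself cannot be told apart from that of Rnaseh1 induction. Whether the line is a single clone, and whether replicates came from separate cultures, is not given in the sources used here. The files hold peak positions and the authors' lists, with no value per library, no fold change and no p-value, so neither depth nor replicate error can be attached to any count below, and no marker or induction check could be made. Lower means lower with doxycycline than in control, as read from the name of the list.

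H2A.Z is a variant of histone H2A that remodelling complexes place in nucleosomes at promoters and enhancers, where it is linked to both active and poised genes. R-loops are RNA:DNA hybrids with a displaced DNA strand, and RNase H1 removes them by cutting the RNA, so its induction asks where H2A.Z depends on them. Gse1 encodes a coiled-coil nuclear protein found in co-repressor complexes with the demethylase LSD1 (Kdm1a), CoREST proteins and histone deacetylases. A330074K22Rik is a long non-coding RNA gene whose function is not described here.

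The starts of the members anchor all distances below, so their sequences are shown first. RefSeq (GRCm38.p6) gave 4 promoters for the pair, each running from 250 bases before to 50 bases after a start. Each is written 5′ to 3′ on the strand of its gene, with every CG dinucleotide, the site of DNA methylation and the mark of CpG islands, in capitals.
A330074K22Rik, chr8:120228181-120228480, minus strand: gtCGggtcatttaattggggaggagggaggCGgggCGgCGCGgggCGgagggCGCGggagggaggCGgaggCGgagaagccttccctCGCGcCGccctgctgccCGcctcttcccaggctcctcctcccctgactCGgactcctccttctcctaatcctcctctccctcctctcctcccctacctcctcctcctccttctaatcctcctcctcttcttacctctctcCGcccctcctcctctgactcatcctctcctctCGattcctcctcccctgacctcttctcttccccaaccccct
Gse1, start of NM_198671, chr8:120488616-120488915, plus strand: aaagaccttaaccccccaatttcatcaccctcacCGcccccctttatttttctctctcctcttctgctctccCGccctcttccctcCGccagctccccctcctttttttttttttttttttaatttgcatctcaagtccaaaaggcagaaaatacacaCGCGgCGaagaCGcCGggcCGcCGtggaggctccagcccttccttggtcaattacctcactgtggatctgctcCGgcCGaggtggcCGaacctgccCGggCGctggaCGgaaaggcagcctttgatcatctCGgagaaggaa
Gse1, start of NM_001145897, chr8:120535607-120535906, plus strand: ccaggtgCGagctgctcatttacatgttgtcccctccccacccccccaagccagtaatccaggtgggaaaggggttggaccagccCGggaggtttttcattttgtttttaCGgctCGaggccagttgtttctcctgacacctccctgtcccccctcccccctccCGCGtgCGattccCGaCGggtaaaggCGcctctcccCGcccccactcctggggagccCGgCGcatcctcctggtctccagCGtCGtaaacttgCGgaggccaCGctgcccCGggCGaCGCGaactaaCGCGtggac
Gse1, last listed start, chr8:120537159-120537458, plus strand: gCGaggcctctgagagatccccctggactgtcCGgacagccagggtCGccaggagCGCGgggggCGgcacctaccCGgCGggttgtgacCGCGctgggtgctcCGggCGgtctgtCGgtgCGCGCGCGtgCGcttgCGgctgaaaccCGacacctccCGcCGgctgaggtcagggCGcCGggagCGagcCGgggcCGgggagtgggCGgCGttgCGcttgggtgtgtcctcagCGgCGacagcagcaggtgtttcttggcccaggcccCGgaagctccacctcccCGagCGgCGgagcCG

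CG, which reads the same on both strands, occurred 17 times in the A330074K22Rik promoter, 17 times at the start of NM_198671, 23 times at the start of NM_001145897 and 37 times at the last Gse1 start. The median over 32851 promoters of this length was 7, and 94.6% of them held at least 1. As many as 17 were held by 31.4% of promoters, and as many as 37 by 5.58%. The promoters differed in GC skew, the excess of G over C on the gene's strand as a share of both, a measure known for its link to R-loops where it is positive. It was −0.36 at A330074K22Rik (63 G and 134 C) and −0.285 at the start of NM_198671 (59 G and 106 C). Only 0.941% and 2.39% of promoters had a skew as low. At the other two Gse1 starts it was −0.181 and 0.107, against a median of 0.0128. The first lower peak began 585 base pairs upstream of the A330074K22Rik start. The start of NM_198671 lay within a lower peak of 4059 base pairs (120486463 to 120490521). The other two Gse1 starts, with the most CG, had no peak within 14 kb. A CG-rich start was therefore found both with and without an H2A.Z peak in this gene.

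H2A.Z was lower at 21 of the 34 peaks of the window (61.8%) and higher at 0, and the other 13 were in neither list. Over the whole set 14.8% of peaks were lower, and on chromosome 8 the share was 17.4% (509 of 2924). Higher peaks made up 0.518% of the set. The count of 0 in the window allows a share of up to 8.82% (3 counts of 34, counting error only). The nearest higher peak of the chromosome was 8391.3 kb away. All 21 lower peaks of the window were the 21 assigned to the pair. Gse1 and A330074K22Rik stood first and second in lower peaks per gene. Just below them, Slc22a12, Casz1 and Nol4l had 8 each, while 76.1% of genes with a lower peak had 1.

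**Figure D1:**
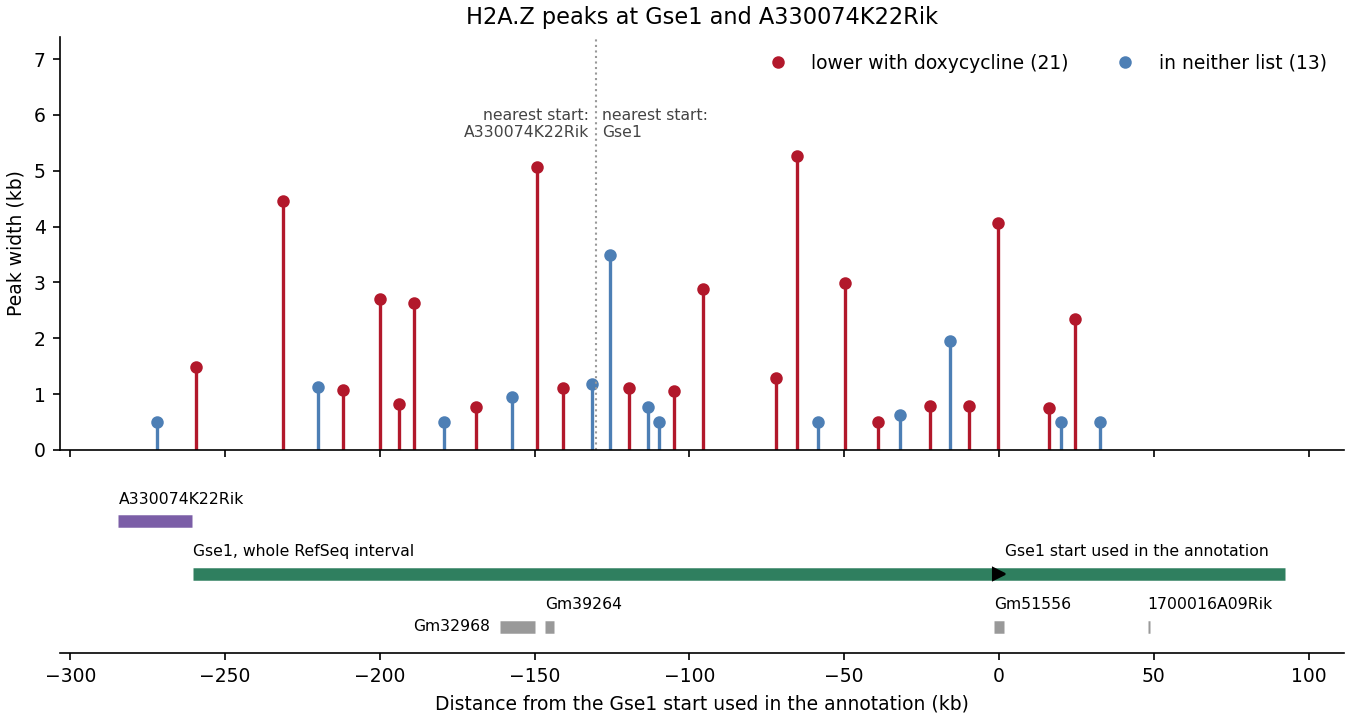
Each stem is an H2A.Z peak of the window, placed by its centre in kb from the Gse1 start used in the annotation (x axis), with its width in kb as height (y axis), red for lower peaks and blue for peaks in neither list; bars below are RefSeq gene intervals. The 21 lower peaks lie along the Gse1 interval with 11 others between them, and no peak lies over its last 59.5 kb.

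The lower peaks formed a chain along 286 kb, from 120228815 to 120514519, that held 32 peaks, 21 of them lower and 11 in neither list. The nearest-start rule divided this chain at the midpoint between the starts, position 120358548, which are 261 kb apart. On the A330074K22Rik side 9 of 13 peaks were lower, and on the Gse1 side 12 of 19. From its start outwards, the A330074K22Rik peaks were centred 1324, 29386, 48728, 60729, 66970, 71631, 91579, 111524 and 119868 base pairs upstream of its start. All 9 lay upstream, and the first was the only one within 20 kb. Of the 12 Gse1 peaks, 10 were centred upstream of the start of NM_198671, at 119508, 104983, 95722, 71901, 65172, 49710, 39063, 22359, 9634 and 374 base pairs. The last of these is the peak that holds the start itself. A further peak was 16163 base pairs downstream, in the first intron of NM_198671. The 12th was in the same intron, and the authors' annotation measured it at 22513 base pairs upstream of the start of NM_001145897.

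RefSeq draws Gse1 far longer than the annotation used for the lists. Its interval runs from 120228501 to 120581383 (353 kb) and pools 11 transcripts, 8 of them predicted models. The interval begins 271 base pairs from the A330074K22Rik start, but none of the 3 listed Gse1 promoters lies there, and the exons of the long models were not analysed here. Read on the plus strand, that of the listed Gse1 starts, the A330074K22Rik promoter has a skew of 0.36. That promoter ends at 120228480, before the Gse1 interval begins, so its skew describes no base of the interval. The skew of the bases after the start of the interval was not measured. All 21 lower peaks were centred inside this interval, including the 18 that the authors' annotation gives as intergenic, and none was centred inside A330074K22Rik (120204434 to 120228230). The single peak inside A330074K22Rik, 501 base pairs at 120216804, was in neither list. Whether the long models are transcribed in these cells was not tested.

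Intergenic placement made up 85.7% of the 21 (9 of 9 at A330074K22Rik and 9 of 12 at Gse1), against 29.4% of all lower peaks. Introns held 2 of the 21 (9.52%, against 27.8% of all lower peaks), both at Gse1, and a promoter held 1, against 18.9% of all. With RefSeq intervals in place of the annotation, 0 of the 21 lay outside a gene, which allows up to 14.3% by counting alone. All 21 lay in the Gse1 interval, so they are not separate cases and the 0 rests on 1 gene interval. Of all 2670 lower peaks annotated as intergenic, 660 (24.7%) were centred inside a RefSeq gene of any type, and 197 (7.38%) inside a protein-coding one. These 197 were spread over 155 genes, and Gse1 alone held 18. Tcf20 came next with 6, and no other gene had more than 3.

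The peaks of the window were closely spaced. Distances between neighbouring centres ran from 3.71 to 28.1 kb with a median of 8.3 kb (33 distances), and 78.8% of them were between 4 and 12 kb. Over all chromosomes the median was 15.9 kb and 36% fell in that range, and on chromosome 8 the median was 16.3 kb. Lower peaks alone were a median of 13.6 kb apart in the window (20 distances, 4.66 to 28.1 kb), against 77.4 kb over all chromosomes. The window held 9.71 peaks per 100 kb, against 2.32 along chromosome 8. Dense peaks and a high share of lower ones were thus both present, and each shortens the distance between lower peaks.

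Lower and other peaks were mixed along the chain. Lower peaks fell into 10 runs, with a lone lower peak counted as a run of 1. The longest held 4 and occurred on both sides of the midpoint (120276426 to 120301174 and 120383354 to 120426324). A run of 3 covered the start of NM_198671 (120478842 to 120505406). Runs of 4 or more numbered 242 in the whole set, up to 13 peaks, so run length did not set the locus apart. Of the 21 lower peaks, 17 (81.0%) had a lower neighbour, against 46.8% of all lower peaks. A high share of lower peaks, for which the pair was chosen, raises this figure by itself. Whether lower peaks were clustered beyond that was not tested. Between the first and last lower peak, no more than 2 adjacent peaks were unchanged. The widest stretch without any peak inside the chain was 25.1 kb, between the first and second lower peak.

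The chain stopped short of the 3′ part of the gene. Beyond the last peak of the window, an unchanged peak of 501 base pairs that ended at 120521848, no peak occurred for 66.7 kb, up to one at 120588499 in Gins2, which encodes a subunit of the GINS replication complex. This stretch takes in both inner Gse1 starts, the lncRNA gene 1700016A09Rik and the microRNA gene Mir7687. Gaps of at least this length made up 15.5% of gaps on chromosome 8 and over all chromosomes, so the stretch is of an ordinary kind outside the chain. The Gins2 peak, 501 base pairs in an exon and centred 326 base pairs from its start, was lower. Of the lncRNA genes inside Gse1, Gm51556 starts within the lower peak at NM_198671, Gm39264 starts 2.29 kb from a lower peak, and Gm32968 starts 3.3 kb from an unchanged one. The far ends of both Gm32968 and Gm39264 overlap another lower peak (120337221 to 120342287).

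Wide peaks of the window were nearly all lower. The 21 lower peaks had a median width of 1287 base pairs (501 to 5261), and the 13 others 629 (501 to 3495). The ranges overlap. Of the 10 peaks of 2 kb or more, 9 were lower, and of the 7 at 501 base pairs, which is the least width any peak of the set has, 1 was. In the whole set the order was different, with 12.6% of peaks of 2 kb or more lower and 14.6% of those at minimum width. The widest members were 5261 base pairs at Gse1 (120421064 to 120426324) and 5067 at A330074K22Rik (120337221 to 120342287), followed by 4457 (120255388 to 120259844) and the 4059 at the Gse1 start. The exception among the wide peaks was the one of 3495 base pairs (120361558 to 120365052), the first peak beyond the midpoint towards Gse1. Counted in base pairs, 77.0% of the peak sequence of the window was lower (43927 of 57025), against 13.7% over the set. Peak height is not in the files, so whether wide peaks here were also the tallest was not tested. Gaps between neighbouring peaks of the whole set were all about 2 kb or more. Whether closer peaks had been joined into wide ones was not tested.

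**Figure D2:**
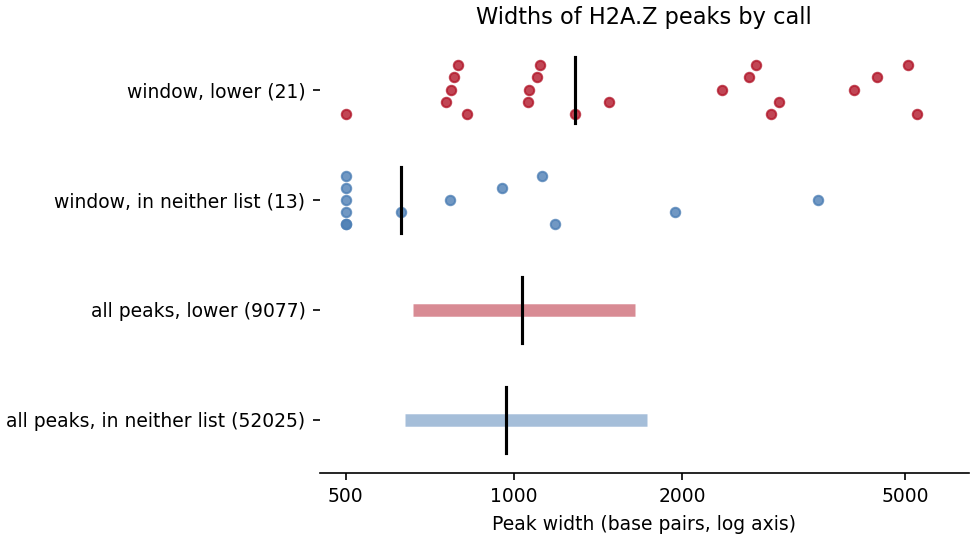
Widths in base pairs on a log axis for the 21 lower and 13 other peaks of the window (points; height within a row only separates them) and for all peaks of each kind (bars from the first to the third quartile), with medians as black lines. In the window the medians are 1287 and 629, while over all peaks they are 1034 and 967.

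Repeat labels were few among the members. Of the 20 in introns or intergenic DNA, 3 (15.0%) were labelled with a repeat, against 30.6% of all 5193 such lower peaks. The authors' annotation gives each peak a single label, so repeats elsewhere in a wide peak were not counted. The peak of 4457 base pairs was labelled ORR1A2, an LTR of the ERVL-MaLR family. That of 2627 base pairs (120298548 to 120301174) was labelled as a B3 SINE, and the last Gse1 peak (120512169 to 120514519) as an ID_B1 SINE. L1Md elements, young L1 retrotransposons that held 18.6% of all such lower peaks, held 0 of the 20, which allows up to 15.0% by counting. SINEs held 2 of the 20, and 3.20% of all. A CpG island held 1, the peak of 1479 base pairs next to the A330074K22Rik start (120228815 to 120230293), against 13.8% of all. The other 16 had no repeat or island named. With 20 peaks these shares are loose, and no difference in them was tested.

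Long genes were 1 comparison for a gene with 33 peaks inside it, and the region around the locus is described further below. Of 990 protein-coding RefSeq genes of 200 kb or more, 42 had 20 or more peaks inside. The median share of lower peaks among these was 3.92%, below the 14.8% of all peaks. Gse1 had 21 of 33 lower (63.6%), the highest share of the 42, and 9.35 peaks per 100 kb, the highest density of the 990. Its 5.95 lower peaks per 100 kb were also the most. Rnf220, with nearly the same density (9.31 per 100 kb), had 1 of 21 lower. More lower peaks in number were found only in Gm37013, Gm38666 and Gm38667, overlapping gene models of 868 to 889 kb with 30 or 31 lower peaks each (48.4 to 49.2%). Rnf220 and these models were picked out after their values were seen.

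**Figure D3:**
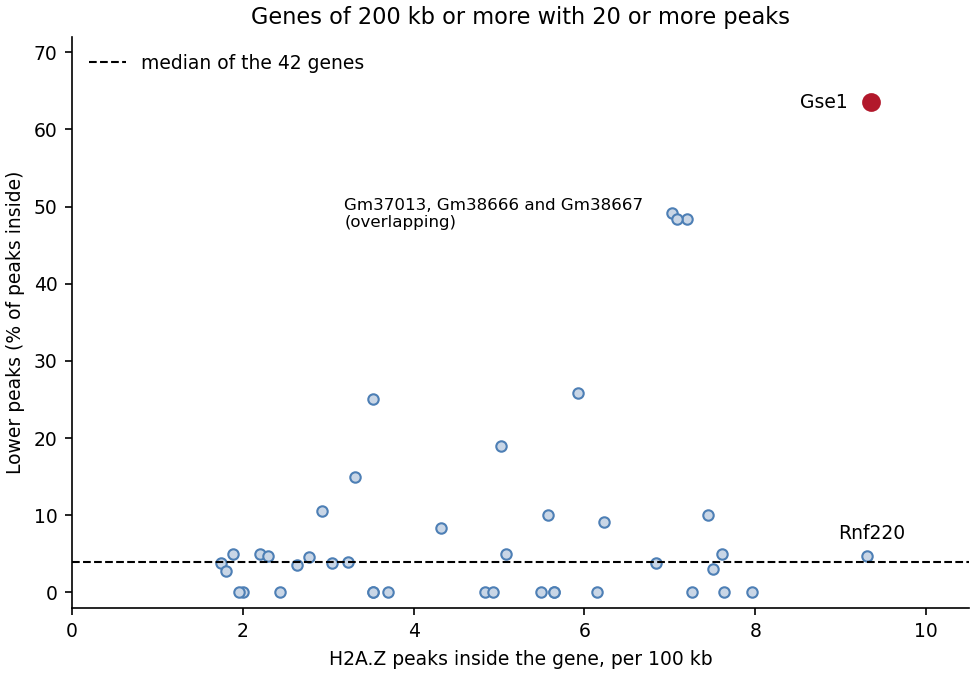
Each point is one of 42 protein-coding genes of 200 kb or more with 20 or more H2A.Z peaks inside, by peaks per 100 kb (x axis) and the percentage of these that were lower (y axis); the dashed line is the median share, 3.92%. Gse1 lies at 9.35 peaks per 100 kb and 63.6%, and Rnf220 at 9.31 and 4.76%.

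On a fixed grid of 350 kb windows, no window reached the 21 lower peaks of the window drawn for the locus. Of 6886 windows with a peak, the median had 7 peaks and 1 lower peak, 48.7% had 0 lower, and the most in any was 20 (of 23, chromosome 8, 71400001 to 71750000). The count of 21 came from a window drawn around the locus, whereas the grid cuts at fixed positions. This grid splits the locus between adjacent windows, and neither of them held as many as 16 lower peaks. The locus was thus not the top window of the fixed grid. With the grid moved by 50% of a window, 2 windows had 21, of which 1 was the locus and 1 was on chromosome 2 (30625001 to 30975000, 21 of 41). The share of 61.8% was less exceptional than the count, since 8 of the 600 grid windows with 20 or more peaks had a share at least as high.

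**Figure D4:**
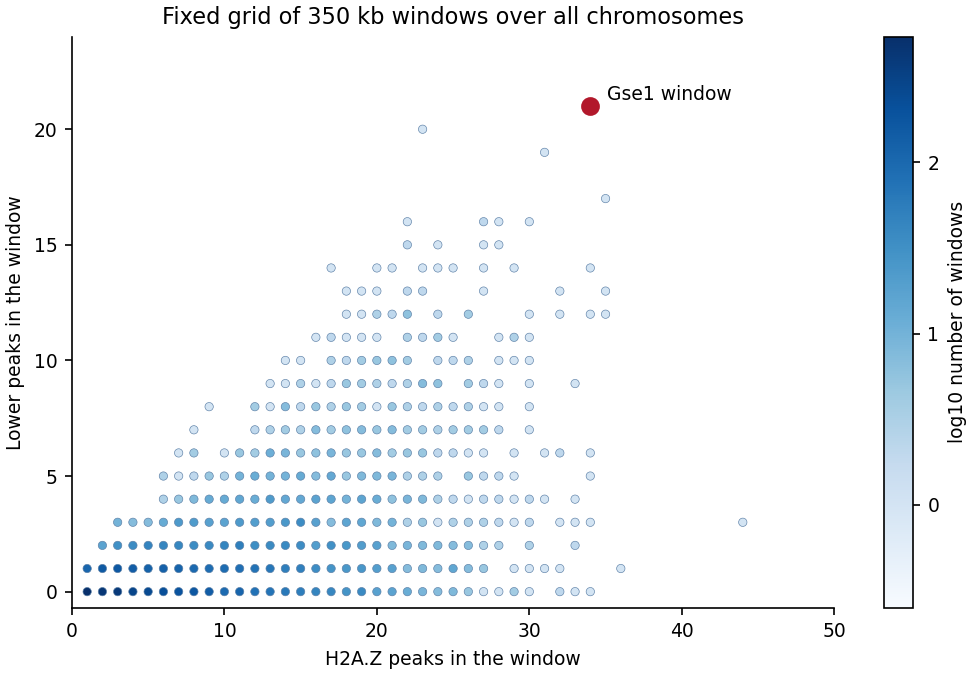
Each point stands for the 350 kb windows of a fixed grid that share a number of H2A.Z peaks (x axis) and of lower peaks (y axis), shaded by the log10 number of windows. The window around Gse1, in red with 34 peaks and 21 lower, was drawn for the locus and lies just above the highest grid window, which had 20.

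The high share did not end with the pair. In windows of 350 kb laid end to end around the locus, 10 of 20 peaks were lower in the one before and 6 of 14 in the one after (42.9%). Of 12 such windows, reaching 2.1 Mb to each side, 9 had a share above that of chromosome 8, from 30.8 to 62.5%, and together 70 of their 156 peaks were lower (44.9%). The 3 farthest from Gse1 towards lower coordinates had 0 lower among 14 peaks. The Gse1 window had more peaks than any of these, 34 against 1 to 23. Its share of 61.8% was exceeded only in the window at 2.1 Mb, with 62.5% (10 of 16). Over chromosome 8 without the window, 16.9% of peaks were lower.

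**Figure D5:**
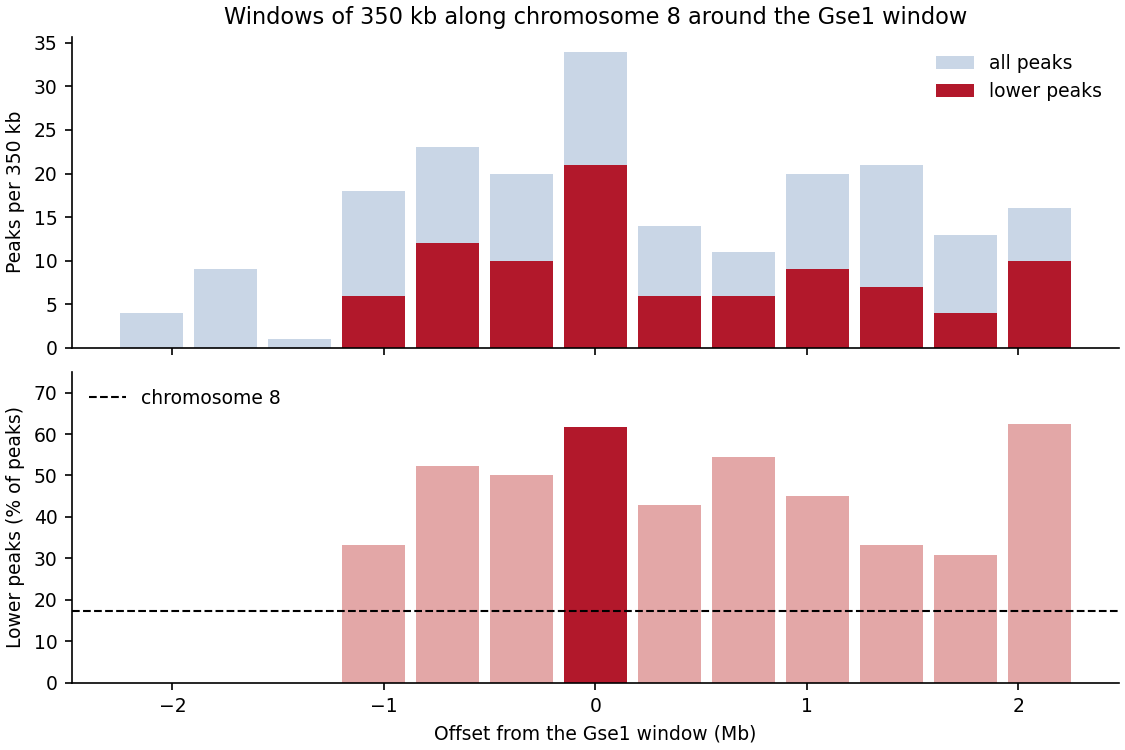
Windows of 350 kb along chromosome 8 by their offset from the Gse1 window in Mb (x axis), with the number of all and lower peaks (upper panel) and the percentage lower (lower panel); the dashed line is the chromosome's 17.4%. From −1.05 to 2.1 Mb every window is above the line, at 30.8 to 62.5%, and the Gse1 window has the most peaks.

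Genes beside the locus shared in this. Of 15 neighbours, 13 had a peak inside or within 10 kb and 10 of these had a lower one (76.9%), against 42.4% of all 16931 protein-coding genes with such a peak. Adjacent genes can share a peak, as Foxf1 and Mthfsd do, so these 10 are not separate cases. On the A330074K22Rik side, Crispld2, which encodes a secreted cysteine-rich protein, had 3 of 5 lower, Klhl36 2 of 3 and 6430548M08Rik 2 of 4, while Zdhhc7, a palmitoyltransferase gene, had 0 of 2, the deubiquitinase gene Usp10 0 of 2 and the actin-binding Cotl1 0 of 4. Usp10 and Cotl1 were named after their values were seen. Fam92b, next to the window, had 1 of 3 lower, a peak it shares with 6430548M08Rik. Beyond Gse1, Irf8, a transcription factor of myeloid cells, had 2 of 4 lower, at its promoter (120735708 to 120736333) and in an intron (120751652 to 120754718). Further on, the forkhead genes Foxf1, Foxc2 and Foxl1, factors of mesenchyme and vessels, had 2 of 2, 2 of 3 and 1 of 1. The lower peak of Foxl1 is also counted for Foxc2. Emc8 and Cox4i1, between Gins2 and Irf8, had no peak.

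Genes of the co-repressor complex that holds GSE1 had lower peaks about as often as all genes. Of 10 genes of this list, 9 had a peak inside or within 10 kb, and 4 of these had a lower one, 44.4% against the 42.4% of all genes. Rcor2, a CoREST protein, had a lower promoter peak of 665 base pairs centred 42 base pairs upstream of its start (chromosome 19, 7267020 to 7267684), and the deacetylase gene Hdac2 had one of 1429 base pairs (chromosome 10, 36973843 to 36975271). At Phf21a, whose protein binds the histone H3 tail, 2 of 6 peaks were lower, both assigned to the adjoining Large2. At Hmg20b, an HMG-box gene, the lower peak was assigned to Gipc3. Kdm1a, Rcor1, Rcor3, Hdac1 and Zmym3 had 1 to 3 peaks each and none lower, and Zmym2 had no peak.

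The 3 genes next in number of lower peaks are given beside these, and no difference from them was tested. Casz1, a zinc finger factor of heart and vessels, had 8 lower of 13 peaks along 146 kb of chromosome 4 (61.5%), 5 of them in introns and 2 intergenic. Nol4l had 8 of 10 along 120 kb of chromosome 2 (80.0%), 5 in introns and 3 intergenic. Slc22a12, a urate transporter gene, had 8 of 19 along 191 kb of chromosome 19 (42.1%), 6 of them intergenic. Measured the same way, Gse1 had 12 of 18 along 146 kb (66.7%) and A330074K22Rik 9 of 12 along 120 kb. Each stretch runs from the first to the last lower peak assigned to the gene, so both ends are lower by construction. Unchanged peaks near the midpoint are thus left out here, but were counted in the 12 of 19 and 9 of 13 above. Of the assigned peaks, 12 of 12 at Gse1, 6 of 8 at Casz1 and 5 of 8 at Nol4l were centred inside the gene's own RefSeq interval, against 0 of 9 at A330074K22Rik and 0 of 8 at Slc22a12. These 5 genes were chosen for their counts, so their shares are descriptions only.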

How the data were processed

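GRCm38 is the build, and deepTools, HOMER, Picard, Bowtie2 and Trimmomatic are the tools, that the submitters' processing notes name, without versions. Which program found the peaks, how changed peaks were tested and whether replicates were pooled is not given in the sources used here. The lists were annotated with HOMER annotatePeaks on mm10, per the file headers. The deposited peak score is 0 in every row, so it ranks nothing. Positions are those the authors deposited, counted from 1 after conversion of the full peak set, which counts from 0. Distances from peak centres to starts are the authors' own. Distances from a start to the nearest peak edge were measured here from RefSeq starts.

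A peak was lower or higher if its exact coordinates were in the list of that name (9077 and 318, all matched), and unchanged if in neither. Gene intervals and promoters came from RefSeq GRCm38.p6, and a peak was inside a gene by its centre. All results are counts, shares and medians, with no test, since no value per library was used and the pair was chosen for its count. The counting functions were tested on simulated data. Genes were named by rule (both members, genes beside them, the 3 next in lower peaks, and members of 2 lists), except where the text says otherwise. The members and lists were chosen with earlier results of these data known. A further gene of the co-repressor list is not reported here. RefSeq lists Fam92b, a neighbour, as Cibar2. Software was pandas 2.3.3, numpy 2.4.6, matplotlib 3.10.9 and SciPy 1.17.1 under Python 3.11.15.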

Additional observations from a re-analysis of the deposited data

How the results depend on the processing

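Replacing the nearest start by RefSeq gene intervals moved the lower peaks of Gse1 from 12 to 21 and those of A330074K22Rik from 9 to 0, with their sum of 21 kept, and moved the intergenic share from 85.7% to 0%. Taking lower peaks only moved the median spacing from 8.3 to 13.6 kb. Grid windows with at least 21 lower peaks numbered 0, but 2 with the grid moved by 50% of a window and 6 with windows of 500 kb, each including the locus. The share of lower peaks stayed between 58.5% (window 50 kb wider on each side) and 77.0% (base pairs of peak). No paired analysis was possible because the files hold no value per library, and no replicate could be left out for the same reason. Precision is limited by the number of peaks, and depth is unknown.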
